A study of Homo sapiens with 8 samples.

Results

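HERVH-derived and HERVH-overlapping transcripts were described in RNA-seq of the human embryonic stem cell (hESC) line H9. They comprised 10 of the 57773 genes in the counts: the 7 long noncoding RNAs (lncRNAs) ESRG, LINC-ROR, LINC00458, LNCPRESS2, P3H2-AS1, ENSG00000253507 and ENSG00000260834, and the 3 protein-coding loci C13orf42, HHLA1 and ABHD12B. Their transcripts start in or overlap copies of HERVH, and they were selected on that overlap with changes of some of them after HERVH knockdown and after HERVH deletion in these libraries already known, without a stated threshold. The changes after HERVH knockdown and after HERVH deletion are therefore given as a description, without p-values. Where a transcript is named as past a threshold of the fit over all genes in these comparisons, this only describes its place in that fit. The rule of choice names no change in CHD7 knockout cells, and that comparison is given with its test. It uses the same WT libraries as the comparisons known at the choice, so its FDRs for the 10 genes are not independent of that choice.

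All cells were H9 hESCs cultured in mTesR1 medium, with 2 libraries in each of 4 groups. WT cells carried the genotype wild type (CHD7-HA) and were Untreated. HERVH knockdown cells had the same genotype and were LNA-GapmeRs treated for 24 h, with GapmeRs that pair with many HERVH copies. HERVH element deleted cells were Untreated and carried the genotype Deletion of HERVH element on Chr2, which removes a single copy. CHD7 knockout cells were Untreated and had the genotype CHD7 -/-, which targets a chromatin remodeler. The WT cells used for comparison received no oligonucleotide, so that transfection and the loss of HERVH RNA cannot be told apart in the knockdown. The edited lines were expanded from picked colonies, and the labels do not say which clone gave which library. Differences between clones and effects of the edit therefore cannot be told apart in HERVH element deleted and CHD7 knockout cells. Nothing states that replicates were separate cultures, and the spread between them may be technical.

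HERVH is a primate endogenous retrovirus family whose flanking repeats act as promoters in pluripotent cells. Many lncRNAs of these cells start in such a repeat and carry HERVH sequence in their exons or introns, and HERVH RNA is characteristic of human pluripotent cells. An LNA-GapmeR is a short DNA oligonucleotide with locked ends that pairs with an RNA and directs RNase H to cut it, and introns can be targets as well as exons.

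The 3 GapmeRs of the knockdown pair with targets that are their reverse complements. They are shown because the match of each transcript to them differed, and they are written 5′ to 3′ in lower case, without capitals.

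SHHERVH_3: ggaagatttgggacga

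SHHERVH_4: attgggacctagctcg

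SHHERVH_12: atgtggagtgggtagc

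On GRCh37, the full target of SHHERVH_3 was found at 246 positions, that of SHHERVH_4 at 244 and that of SHHERVH_12 at 621. Of these, 246, 244 and 619 lay inside the 1225 HERVH copies listed for the study, and 767 copies held at least 1 full target. The deletion was made with 2 guide RNAs, whose target sites are shown with the PAM in capitals because they define the deleted segment.

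5' guide: ttagaagtataccgaactcaGGG

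3' guide: cagcatccaacgatcacagcAGG

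Each guide had 1 full match on GRCh37, at chr2:210163938-210163957 and chr2:210169902-210169921, both on the plus strand. A deletion between their cut sites removes 5964 bp from position 210163955 to position 210169918. This segment held 1 listed copy with 5620 bp and 2 full GapmeR targets. None of the 10 genes lies on chromosome 2, and the fewest mismatches of either guide next to an NGG within any of the 10 genes were 6. Within ENSG00000260834 they were 8 for the 5' guide and 7 for the 3' guide. Guide sites with mismatches were not searched outside the 10 genes, including their flanks, and off-target edits were not tested.

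The best target of SHHERVH_4 in 4 of the genes is shown on the strand of the transcript, with mismatches in capitals, since these genes span the range from a full exonic target to none.

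ESRG exon, chr3:54672531-54672546: cgagctaggtcccaat

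ENSG00000260834 exon, chr16:65267756-65267771: cgagctGggtcccaat

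LINC00458 intron, chr13:54705876-54705891: cAagctaggtcccaat

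C13orf42 intron, chr13:51756052-51756067: GAaAcCTggtcccaat

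Gene positions are on GRCh37 with GENCODE models lifted to that build, which differ from the Ensembl models used for counting. ESRG (chromosome 3, 54666149 to 54673884, minus strand) had 71.6% of its exonic bases in a HERVH copy, and its exons held full targets of SHHERVH_3 and SHHERVH_4. ENSG00000260834 (chromosome 16, 65224876 to 65268836, minus strand) followed with 69.4% and had 2 full targets in introns. P3H2-AS1 (chromosome 3, 189838733 to 189867951, plus strand) had 50.8%, and ENSG00000253507 (chromosome 8, 132320792 to 132330134, plus strand) had 42.1%. The share of exonic bases in copies was 16.3% in ABHD12B (chromosome 14, 51338771 to 51371688, plus strand), 15.9% in HHLA1 (chromosome 8, 133073727 to 133123406, minus strand) and 10.5% in LINC-ROR (chromosome 18, 54721789 to 54739350, minus strand). It was 10.1% in C13orf42 (chromosome 13, 51656255 to 51774388, minus strand), 9.1% in LINC00458 (chromosome 13, 54524390 to 54844532, minus strand) and 4.2% in LNCPRESS2 (chromosome 4, 93189918 to 93198226, minus strand). The transcripts of ESRG, LINC-ROR, LNCPRESS2 and ENSG00000260834 all started in a copy, as did 15 of the 16 transcripts of LINC00458, whereas the 3 transcripts of P3H2-AS1 all started outside copies. C13orf42 had no full target or target with 1 mismatch on its own strand. Its copy carried full targets of SHHERVH_3 and SHHERVH_4 on the opposite strand, at 51745560 to 51745575 and 51745697 to 51745712.

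Between 14802049 and 23156445 reads per library were counted on genes, so that 3 counts corresponded to 0.128 to 0.218 CPM (reads of a gene relative to the TMM-scaled total of its library). This floor covers counting error only. CHD7 RNA was 651 and 649.5 CPM in WT cells and 197.3 and 197.2 CPM in CHD7 knockout cells. Of the pluripotency markers, POU5F1 lay between 829 and 1470 CPM and NANOG between 64.4 and 87 CPM in the 8 libraries. Of the markers of other lineages, KRT7 lay between 2.08 and 8.12 CPM, PAX6 between 0.878 and 3.21, MIXL1 between 1.07 and 2.16 and AFP between 0.554 and 2.11 CPM, with the highest AFP levels (1.81 and 2.11 CPM) in HERVH knockdown cells. SOX1, NEUROD1, TBXT, HAND1, GATA6 and SOX17 had at most 10 counts in any library, and CGA had 0 counts in each. Of the fibroblast markers, COL1A1 was at 269 CPM in HERVH knockdown replicate 2 and between 53.5 and 122 CPM in the others, whereas COL3A1 was at 0 counts in both HERVH knockdown libraries and had at most 7 counts in any library. Fewer cells of a type and less RNA per cell cannot be told apart in these bulk samples. Although the libraries were strand-specific, the counts did not keep strands apart. Processed pseudogenes in introns of expressed genes had a median of 23.07 counts per kb in WT cells when they lay opposite to the host gene (n = 1010) and 23.97 when they lay in its direction (n = 454), and pseudogenes more than 20 kb from any other gene had a median of 0 (n = 1803). Reads from both strands of a HERVH copy can thus enter the count of a gene whose exons overlap it.

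**Figure D1:**
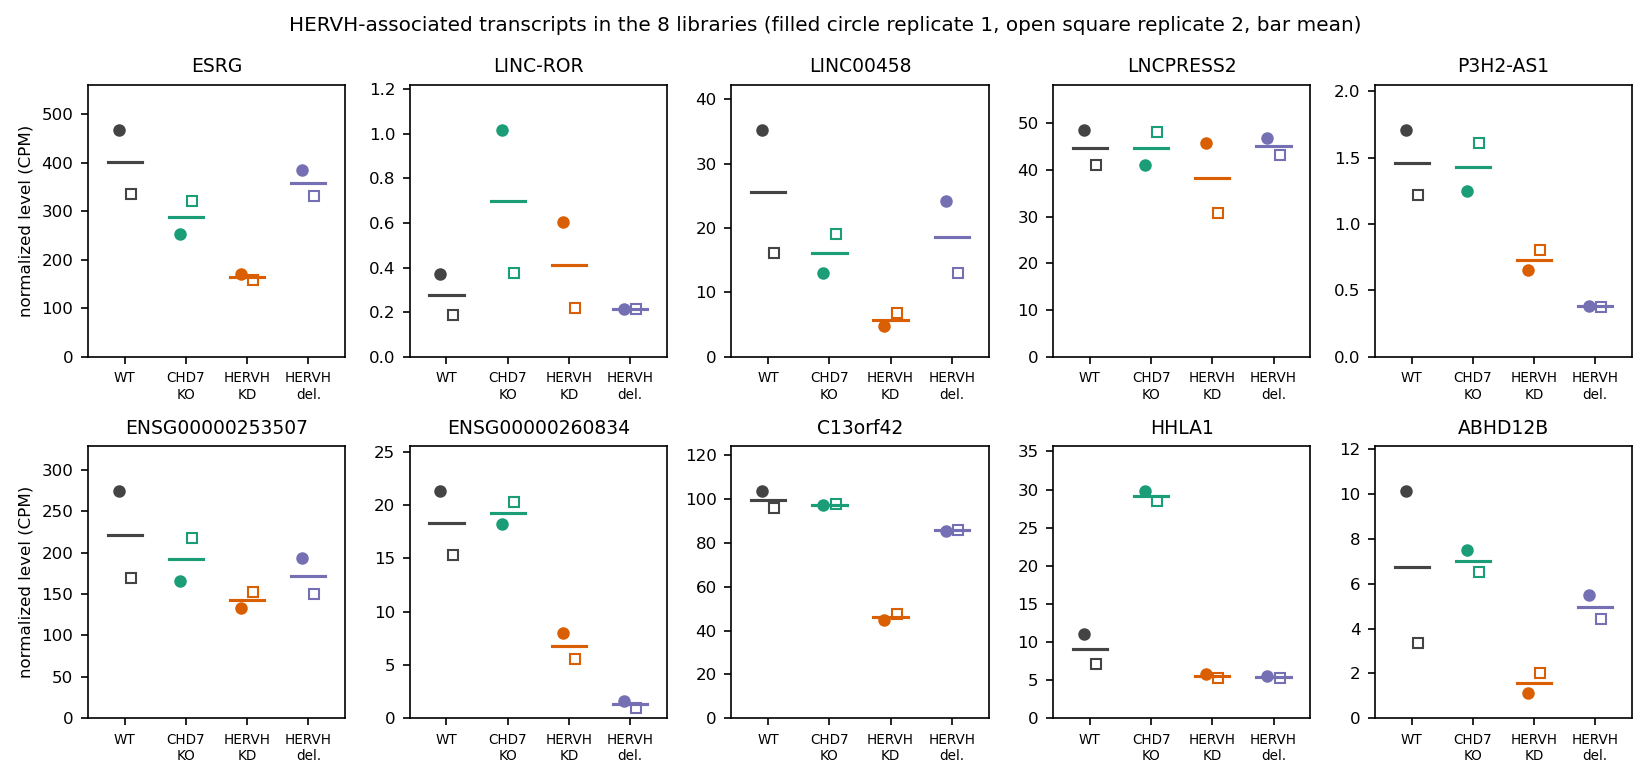
Normalized level (CPM, linear axis from 0) of the 10 HERVH transcripts in WT, CHD7 knockout (KO), HERVH knockdown (KD) and HERVH element deleted (del.) cells. Filled circles are replicate 1, open squares replicate 2 and bars the mean of the 2. ESRG and C13orf42 are lowest in HERVH knockdown cells, ENSG00000260834 and P3H2-AS1 in HERVH element deleted cells, and HHLA1 is highest in CHD7 knockout cells.

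Levels per exonic kilobase were compared between the transcripts in WT cells. The lengths are those of the lifted GENCODE models, whereas reads were counted on Ensembl models, so the order depends on lengths that may differ. LINC00458, at a mean of 25.66 CPM, was divided by 18665 exonic bp, and ENSG00000260834, at 18.29 CPM, by 1843. ENSG00000253507 was highest at 179 ± 59.8 CPM per kb (SD, n = 2), followed by ESRG at 128 ± 29.6 and LNCPRESS2 at 72.8 ± 8.68. The libraries of ENSG00000253507 and ESRG overlapped, whereas those of ESRG and LNCPRESS2 did not. C13orf42 was at 27.1 ± 1.44 CPM per kb and ENSG00000260834 at 9.92 ± 2.3. HHLA1 (1.67 ± 0.522), ABHD12B (1.48 ± 1.05), LINC00458 (1.37 ± 0.725) and P3H2-AS1 (0.981 ± 0.234) came next, and each of these overlapped with its neighbour in this order. LINC-ROR was lowest at 0.0715 ± 0.0331 CPM per kb, from 8 and 4 reads.

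The 2 WT libraries differed for these genes. All 10 were higher in WT replicate 1 than in WT replicate 2, with a median difference of 0.56 on the log2 scale, where the median over the 12704 genes with a mean log2 CPM above 2 was 0. LINC-ROR and P3H2-AS1 lay below that level. The difference was 1.56 for ABHD12B, 1.13 for LINC00458 and 0.11 for C13orf42. In HERVH element deleted cells, 8 of the 10 were higher in replicate 1, with a median difference of 0.16. In HERVH knockdown cells 5 of 10 were higher in replicate 1, and in CHD7 knockout cells 3 of 10. These values do not show which WT library is the unusual one. Changes against WT are therefore followed by the values that the fit gave with 1 of the WT libraries left out, which are called the WT range.

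**Figure D2:**
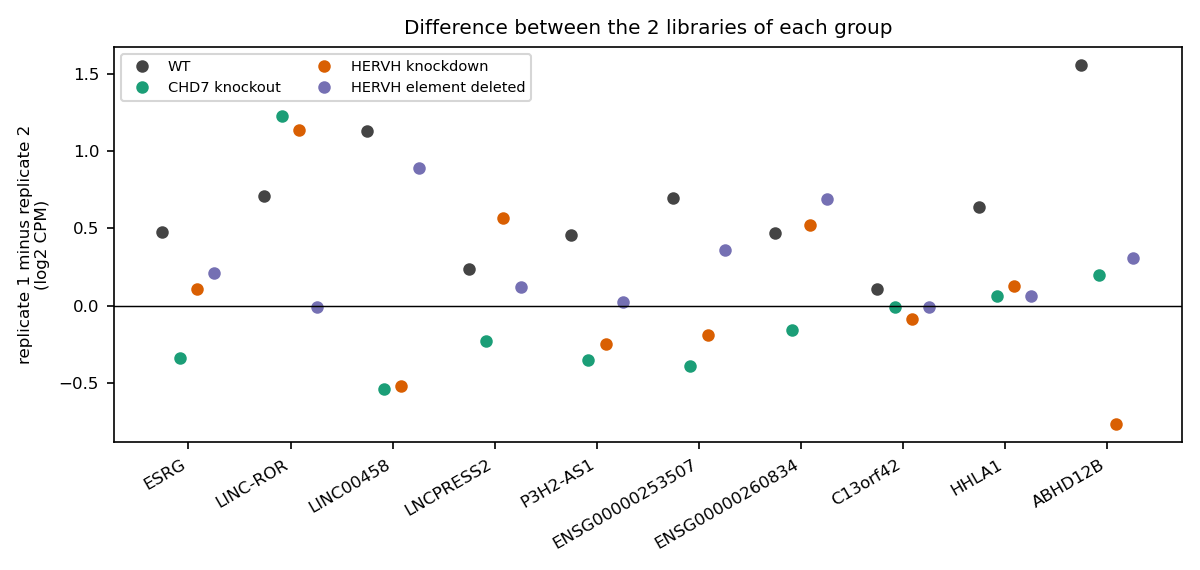
Difference between replicate 1 and replicate 2 (log2 CPM) of each HERVH transcript within each of the 4 groups, where 0 means equal levels. The WT points of all 10 transcripts lie above 0, up to 1.56 for ABHD12B.

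Knockdown of many copies was compared with WT to see which of these RNAs are lost with HERVH RNA. The lncRNA ESRG, the abundant HERVH-derived transcript of hESCs, and C13orf42, a protein-coding locus of unknown function, were down-regulated differentially expressed genes (DEGs, FDR below 0.01 and at least 2-fold in edgeR's quasi-likelihood test). They were thus 2 of 10, where 0.136% of the 23474 genes tested were down-regulated DEGs, a share from which nothing is read because the comparison entered the choice. Both knockdown libraries lay below both WT libraries for 8 of the 10 genes (22.3% of all genes), the exceptions being LINC-ROR and LNCPRESS2. The median log2 fold change of the 10 was -1.06, against 0.04 over all genes tested, with a WT range from -1.2 to -0.89. The number of down-regulated DEGs among the 10 was 0 without WT replicate 1, 1 without WT replicate 2, 4 or 5 without either knockdown library and 5 by DESeq2, which called 1.56% of all genes down-regulated. This DESeq2 share, like each later one, is of the genes to which DESeq2 gave an adjusted p, here 16647. Over the 12704 genes with a mean log2 CPM above 2, the replicate difference was widest in HERVH knockdown cells. Its SD there was 0.54 on the log2 scale, against 0.21 to 0.3 in the other groups. The edgeR share of 0.136% moved with the library left out.

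ESRG was at 467.9 and 336.6 CPM in WT cells and at 170.4 and 158.4 CPM in HERVH knockdown cells. The knockdown libraries were close to each other and far below both WT libraries. Their mean was 40.9% of WT, a log2 fold change of -1.29 (SE 0.182) with a WT range from -1.51 to -1.03. In HERVH element deleted cells ESRG was at 384.2 and 331.4 CPM, and the higher of these lay within the WT range. Their mean was 89% of WT, a log2 fold change of -0.17 (SE 0.178) with a WT range from -0.39 to 0.11. CACNA2D3, a calcium channel subunit gene that spans ESRG on the opposite strand without shared exonic bases, was at 6.69 to 7.11 CPM in WT and 7.06 to 7.65 CPM in HERVH knockdown cells.

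C13orf42 was at 103.4 and 95.92 CPM in WT cells and at 44.57 and 47.41 CPM in HERVH knockdown cells. The libraries of each group differed 1.08-fold and 1.06-fold, and the groups did not overlap. The log2 fold change was -1.12 (SE 0.149), with a WT range from -1.17 to -1.06. HERVH element deleted cells had 85.5 and 85.84 CPM, slightly below both WT libraries, with a log2 fold change of -0.22 (SE 0.146) and a WT range from -0.27 to -0.14.

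LINC00458, an lncRNA of hESCs, was at 35.23 and 16.09 CPM in WT cells and at 4.709 and 6.773 CPM in HERVH knockdown cells. The groups did not overlap, although the WT libraries differed 2.19-fold. The log2 fold change was -2.17 (SE 0.389), with a WT range from -2.62 to -1.5. It reached the 2-fold limit at an FDR below 0.05 but not at the DEG threshold. In HERVH element deleted cells LINC00458 was at 24.15 and 13 CPM, which overlapped with WT, and the WT range of its change ran from -0.92 to 0.24. ENSG00000271652, a processed pseudogene opposite to LINC00458 with 376 shared exonic bases, was at 0.831 and 0.561 CPM in WT cells. In HERVH knockdown cells this pseudogene was at 0.438 and 0.218 CPM.

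ABHD12B, a member of the alpha/beta hydrolase domain family, was at 10.11 and 3.367 CPM in WT cells and at 1.15 and 2.039 CPM in HERVH knockdown cells. The WT libraries differed 3-fold, more than for any other of these genes, and both knockdown libraries were lower. The log2 fold change was -2.1 (SE 0.471), with a WT range from -2.69 to -1.1. HERVH element deleted cells had 5.515 and 4.424 CPM, between the WT libraries, and a WT range from -1.02 to 0.59. PYGL, the liver glycogen phosphorylase gene that overlaps ABHD12B on the opposite strand, was at 63.2 and 45.3 CPM in WT cells and at 32.5 and 36.4 CPM in HERVH knockdown cells. For PYGL the fitted difference was -0.66 on the log2 scale with an SE of 0.195, at FDR = 0.0968 in edgeR. PYGL and ABHD12B share 0 exonic bases in the lifted models. Strands were not kept apart, and the part of PYGL reads in the ABHD12B counts was not tested.

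ENSG00000260834 was at 21.29 and 15.29 CPM in WT cells and at 7.994 and 5.535 CPM in HERVH knockdown cells. The groups did not overlap, the mean was 37% of WT and the log2 fold change was -1.43 (SE 0.275), with a WT range from -1.65 to -1.17. Of the 10 genes, 5 reached the 2-fold limit at an FDR below 0.05, namely ESRG, C13orf42, LINC00458, ABHD12B and ENSG00000260834 (1.04% of all genes).

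The other lncRNAs differed by less between HERVH knockdown and WT cells. ENSG00000253507 was at 273.9 and 169.1 CPM in WT cells and at 133.3 and 152.5 CPM in HERVH knockdown cells, without overlap. Its log2 fold change of -0.63 (SE 0.219) had a WT range from -0.94 to -0.25. P3H2-AS1, annotated opposite to the collagen prolyl hydroxylase gene P3H2, had 37 and 26 reads in WT and 12 and 11 reads in HERVH knockdown cells, or 49.9% of the WT mean, with a WT range of the log2 fold change from -1.23 to -0.74. P3H2 itself was at 76.7 and 68.2 CPM in WT and at 65.6 and 98.6 CPM in HERVH knockdown cells.

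LNCPRESS2, a p53-regulated lncRNA of hESCs, was at 48.62 and 41.06 CPM in WT cells and at 45.77 and 30.73 CPM in HERVH knockdown cells. The groups overlapped, and the 95% interval of the log2 fold change ran from -0.67 to 0.21, with a WT range from -0.34 to -0.1. LINC-ROR, an lncRNA known from reprogramming of somatic cells, had 8 and 4 reads in WT cells and 11 and 3 reads in HERVH knockdown cells. These values overlapped near the floor, and the interval of its log2 fold change ran from -1.23 to 2.42, with a WT range from 0.19 to 1.15. HHLA1, named for its association with a HERVH long terminal repeat, was at 11.08 and 7.062 CPM in WT and at 5.749 and 5.244 CPM in HERVH knockdown cells. The groups did not overlap, with a log2 fold change of -0.72 (SE 0.251) and a WT range from -1.01 to -0.36. LNCPRESS2, LINC-ROR and P3H2-AS1 each had 2 full GapmeR targets in introns, and ENSG00000253507 had 1. LINC00458, at 22.4% of the WT mean, had none on its strand and 2 with 1 mismatch, and C13orf42, at 46.1%, had neither. Full targets in the gene body numbered 3 in HHLA1, at 60.6% of the WT mean, and 3 in ESRG, at 40.9%. ENSG00000260834, at 37%, had 2, and ABHD12B, at 23.7%, had 1. The part of these targets in the changes was not tested.

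**Figure D3:**
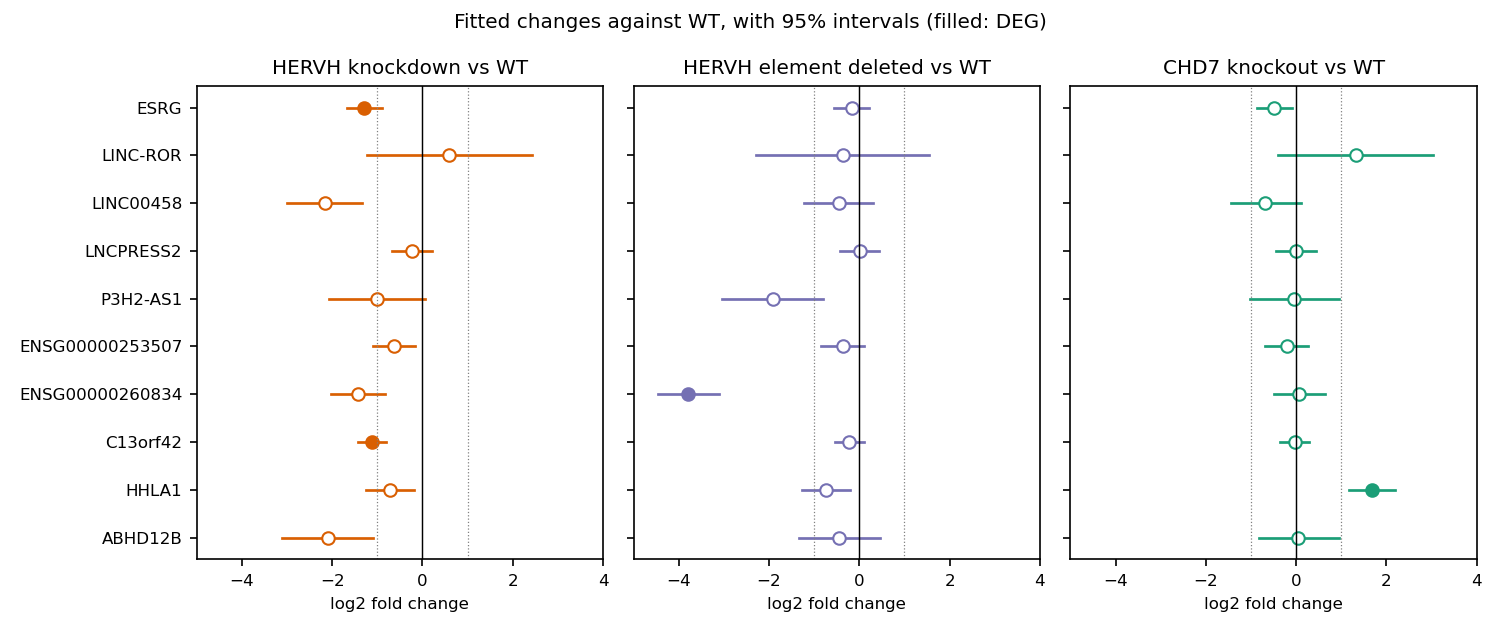
Log2 fold change against WT of each HERVH transcript in HERVH knockdown, HERVH element deleted and CHD7 knockout cells, with 95% intervals from the edgeR fit. Filled points are DEGs and dotted lines mark a 2-fold change. ESRG and C13orf42 are filled for the knockdown, ENSG00000260834 for the deletion at -3.79, and HHLA1 for the CHD7 knockout at 1.68.

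Deletion of a single copy on chromosome 2 was compared with WT to see whether other HERVH transcripts change with it. ENSG00000260834, on chromosome 16, was the only down-regulated DEG among the 10, where 0.0298% of all genes tested were down-regulated DEGs. Both deleted libraries lay below both WT libraries for 4 of the 10 genes, ENSG00000260834, P3H2-AS1, C13orf42 and HHLA1 (20.3% of all genes). The median log2 fold change of the 10 was -0.4, against -0.02 over all genes. It was -0.84 without WT replicate 2 and turned to 0.08 without WT replicate 1.

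ENSG00000260834 had 461 and 327 reads in WT cells and 38 and 18 reads in HERVH element deleted cells, which corresponded to 1.624 and 0.9711 CPM. Both deleted libraries were far below the WT and the HERVH knockdown libraries, and the mean was 7.1% of WT. On the log2 scale the change was -3.79 (SE 0.318), with a WT range from -4.01 to -3.51. ENSG00000260364, which overlaps it on the opposite strand with 125 shared exonic bases, had at most 12 reads in any library.

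P3H2-AS1 had 9 and 7 reads in HERVH element deleted cells, or 0.3847 and 0.3777 CPM, below both WT libraries at 1.709 and 1.216 CPM. The log2 fold change was -1.92 (SE 0.519), it was not a DEG, and its WT range ran from -2.14 to -1.63. HHLA1 was at 11.08 and 7.062 CPM in WT cells and at 5.557 and 5.341 CPM in HERVH element deleted cells. The groups did not overlap, with a log2 fold change of -0.73 (SE 0.247) and a WT range from -1.02 to -0.35. ENSG00000253507 was at 193.1 and 150 CPM, LNCPRESS2 at 46.94 and 43.22 CPM and LINC-ROR at 5 and 4 reads in these cells, and all 3 overlapped with WT. Their WT ranges ran from -0.67 to 0.05, from -0.11 to 0.16 and from -0.77 to 0.22.

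Loss after knockdown and loss after deletion were then compared directly, as the difference between these groups. The fit was that of all 8 libraries, so WT and CHD7 knockout libraries entered its filter, scaling and spread. HERVH knockdown was below HERVH element deleted in both libraries for ESRG, LINC00458, C13orf42 and ABHD12B, which were 4 of 10 (22.9% of all genes). It was above in both for LINC-ROR, P3H2-AS1 and ENSG00000260834, which were 3 of 10 (24.9% of all genes). The log2 fold change of knockdown over deletion was -1.71 (SE 0.388) for LINC00458, -1.67 (SE 0.475) for ABHD12B, -1.12 (SE 0.181) for ESRG and -0.9 (SE 0.148) for C13orf42. ENSG00000260834 was the only DEG of this comparison among the 10, at 2.36 (SE 0.322), where 0.124% of all genes tested were up-regulated and 0.0809% down-regulated DEGs. In a fit of only the 4 libraries compared, ENSG00000260834 was not a DEG, and 2 of 21264 genes were up-regulated DEGs. It was not a DEG when either deleted library was left out, and DESeq2 called 2 down-regulated DEGs among the 10 in addition (0.951% of all genes). For P3H2-AS1 the change was 0.91 with an interval from -0.29 to 2.12. HHLA1 was nearly equal in the 2 groups, at 5.749 and 5.244 CPM in HERVH knockdown against 5.557 and 5.341 CPM in HERVH element deleted cells, with an interval from -0.54 to 0.57. As a share of the WT mean, which the groups have in common, LINC00458 was at 22.4% after knockdown and 72.4% after deletion, and ABHD12B at 23.7% and 73.7%. ENSG00000260834 had the reverse order, at 37% and 7.1%. The knockdown lasted 24 h and the deleted lines were established clones, so that time and the kind of perturbation cannot be told apart.

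CHD7 knockout cells were compared with WT to see whether these RNAs change without the remodeler. HHLA1 was at 29.76 and 28.56 CPM in CHD7 knockout cells, above both WT libraries at 11.08 and 7.062 CPM. HHLA1 was up-regulated by 1.68 on the log2 scale with an SE of 0.24 (FDR = 0.00267 in edgeR) and was the only DEG among the 10, where 0.337% of all genes tested were up-regulated and 0.234% down-regulated DEGs. The change was 2.07 without WT replicate 1 and 1.39 without WT replicate 2. The FDR was 0.0585 without WT replicate 2, 0.0485 without CHD7 knockout replicate 1 and 0.0335 without CHD7 knockout replicate 2. ENSG00000258417, a protein-coding gene that shares 390 exonic bases with HHLA1 on the same strand, was at 0.6 and 0.234 CPM in WT and at 2.17 and 1.99 CPM without CHD7, a log2 difference of 2.3 at FDR = 0.103 in edgeR.

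ESRG was at 253.5 and 321.8 CPM in CHD7 knockout cells, below both WT libraries, and did not pass the test (log2 fold change -0.48, SE 0.179, FDR = 0.269, edgeR), with a WT range from -0.71 to -0.2. LINC-ROR had 22 and 7 reads, above WT once scaled, with an interval of the log2 fold change from -0.4 to 3.03, a WT range from 0.91 to 1.9 and an FDR of 0.646 in edgeR. LINC00458 was at 13.08 and 19.09 CPM and overlapped with WT (log2 fold change -0.68, FDR = 0.562, edgeR), with a WT range from -1.14 to 0.03. The remaining 6 genes had log2 fold changes between -0.21 and 0.07, which rest on the mean of unlike WT libraries. ABHD12B was at 1.08 without WT replicate 1 and at -0.53 without WT replicate 2, and ENSG00000253507 at 0.21 and -0.52. For LNCPRESS2, P3H2-AS1, ENSG00000260834 and C13orf42 the sign turned in the same way, between values of -0.26 and 0.36. The widest interval among them was that of P3H2-AS1, from -1.02 to 0.95, and the narrowest that of C13orf42, from -0.35 to 0.28.

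Genes other than the 10 with an exon in a HERVH copy numbered 141, of which 75 were tested. In HERVH knockdown cells 50 of the 75 (66.7%) had a log2 fold change below 0, against 47.1% of all genes, and the median was -0.31. Its WT range ran from -0.43 to -0.15. By edgeR 1 of the 75 was a DEG, against 0.136% of all genes down-regulated, and 19 lower and 5 higher had an unadjusted p below 0.05, against 9.82% and 9.19% of all genes. DESeq2 called 7 down-regulated DEGs among the 56 to which it gave an adjusted p (1.56% of all genes). The DEG by edgeR was SYN3, a synapsin gene, at 921 and 696 reads in WT and 185 and 185 reads in HERVH knockdown cells (log2 fold change -1.67, SE 0.212, FDR = 0.00453, edgeR). In HERVH element deleted cells 49 of the 75 were below 0 (53.1% of all genes), with a median of -0.1 that turned to 0.05 without WT replicate 1, and SYN3 had 771 and 559 reads. No gene of the 75 was a DEG there by edgeR or by DESeq2, and 3, all lower, had an unadjusted p below 0.05 (1.73% of all genes). In CHD7 knockout cells 32 of the 75 were below 0 (51.5% of all genes) with a median of 0.06, where the WT range ran from 0.09 to 0.33. By edgeR 1 was a DEG, SCGB3A2, against 0.337% of all genes up-regulated. SCGB3A2 was 4.1 higher on the log2 scale and is named after its values were seen. Its reads are not given here, so its distance from the floor is not shown. DESeq2 called 3 up-regulated DEGs of 67 with an adjusted p (0.863% of all genes), and 15 higher and 6 lower had an unadjusted p below 0.05 in edgeR, against 6.25% and 4.61% of all genes.

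**Figure D4:**
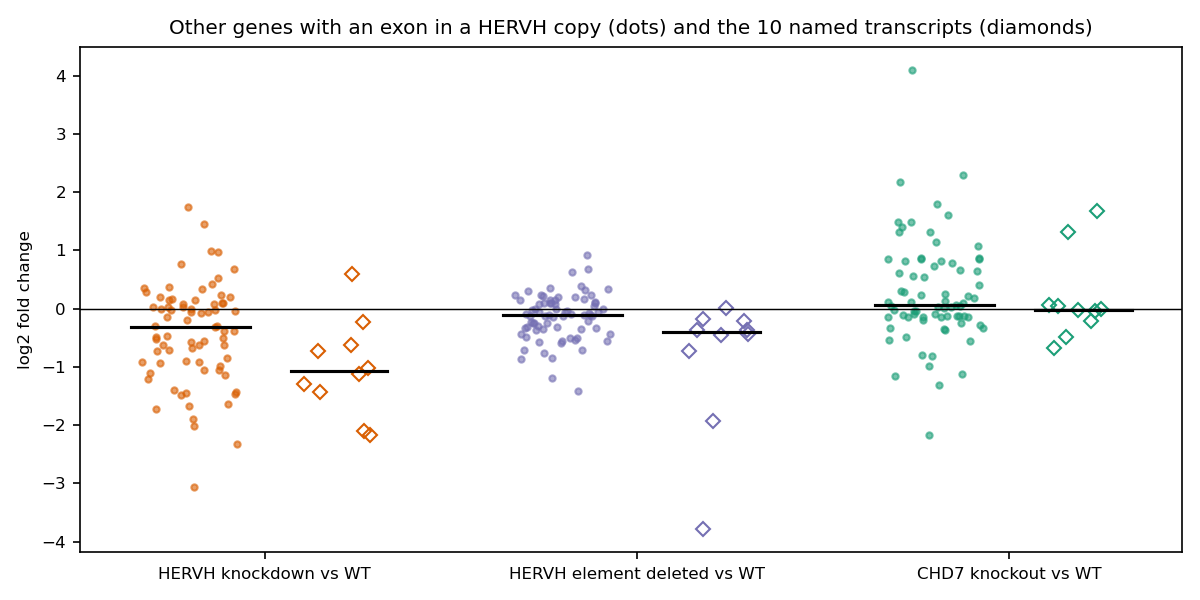
Log2 fold change against WT in 3 comparisons, for the 75 other tested genes with an exon in a HERVH copy (dots, spread sideways for visibility) and the 10 named transcripts (diamonds). Black bars are medians, which for the dots are -0.31 in HERVH knockdown, -0.1 in HERVH element deleted and 0.06 in CHD7 knockout cells.

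Among these genes the highest levels in WT cells were those of NONO, an RNA-binding protein gene, EHMT1, a histone methyltransferase gene, and the lncRNAs LINC00678, LINC00665 and ENSG00000254277. LINC00678 had 3008 and 2488 reads in WT and 1158 and 1073 reads in HERVH knockdown cells, a log2 difference of -0.85 with SE 0.163 and FDR = 0.0211 in edgeR. ENSG00000254277 differed by -1.1 on the log2 scale (SE 0.274), at FDR = 0.0561 in edgeR. The values of NONO (-0.02), EHMT1 (0.14) and LINC00665 (0.29) were small. A full GapmeR target in an exon was found in 3 other genes, of which LINC00665 and LRRK1, a kinase gene, were tested. LRRK1 had 197 and 150 reads in WT and 47 and 85 reads in HERVH knockdown cells (log2 fold change -0.9, SE 0.351, FDR = 0.187, edgeR). Of the 75 genes, 35 had no target with up to 1 mismatch in the gene body, and 23 of these 35 had a log2 fold change below 0 after knockdown with a median of -0.19. The 31 with a full target had 22 below 0 and a median of -0.38. By edgeR SYN3 was the 1 DEG of the 35, and the 31 held 0 (0.136% of all genes). DESeq2 called 3 down-regulated DEGs of 28 and 2 of 22 with an adjusted p (1.56% of all genes). An unadjusted p below 0.05 in edgeR was reached by 5 lower and 4 higher of the 35. Of the 31 it was reached by 10 lower and 1 higher (9.82% and 9.19% of all genes). The part of the targets was not tested.

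Factors known to act on HERVH were measured in the same libraries. Of POU5F1, SOX2, NANOG, KLF4, TFCP2L1, EP300, CREBBP, MED6 and MED12, none was a DEG in HERVH knockdown cells by edgeR or DESeq2, and 1, KLF4, had an unadjusted p below 0.05. KLF4, a transcription factor that binds the HERVH repeats, was at 5.54 and 2.81 CPM in WT, 1.75 and 1.89 CPM in HERVH knockdown and 2.48 and 1.78 CPM in HERVH element deleted cells. KLF4 differed by -1.2 (SE 0.381) on the log2 scale, at FDR = 0.12 in edgeR, after knockdown and -0.96 (SE 0.367, FDR = 1) after deletion. For the other 8, log2 fold changes in HERVH knockdown cells lay between -0.2 and 0.19.

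Across the 8 libraries the mean centred log2 CPM of the 10 transcripts was 0.72 and 0.07 in WT, 0.54 and 0.59 in CHD7 knockout, -0.55 and -0.62 in HERVH knockdown and -0.24 and -0.51 in HERVH element deleted cells. Among 12696 other genes with a mean log2 CPM of at least 2, those most like this mean by Pearson's r over the 8 libraries were CD9 (0.968), RAB33B (0.966), FNDC4 (0.961), HADHA (0.957) and GABRP (0.955). Of these, GABRP itself has an exon in a HERVH copy. By Spearman's rank correlation the top 3, all at 1, were IGF1R, UST and CFAP92. The libraries share their group structure and depth, and these values are a description over 8 points. The r of each transcript to the mean of the other 9 ran from 0.3 for LINC-ROR to 0.77 for HHLA1 and P3H2-AS1.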

How the data were processed

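RNA-seq of 8 libraries in 4 groups of 2 was used, grouped by their labels. The authors depleted rRNA, prepared strand-specific libraries, mapped reads to hg19 with STAR and Ensembl GRCh37.75 models and used HTSeq-count to assign reads to genes. They deposited the raw counts of 57773 genes. The strand setting of the counting and tool versions are not given in the sources used here. The 10 genes and all lists were chosen with earlier results of these data known.

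From the counts, genes were kept by edgeR's filterByExpr (23474 tested), scaled by TMM and fitted with edgeR 4.0.16 (quasi-likelihood, R 4.3.3, limma 3.58.1) over all 8 libraries with group alone and 4 residual degrees of freedom. FDR is the Benjamini-Hochberg value over all genes tested, and a DEG had an FDR below 0.01 and at least a 2-fold change. SE was the absolute log2 fold change over the square root of F. Log2 CPM used a prior count of 2. Alternatives were RLE scaling, DESeq2 1.42.0, no or a stricter filter (1 CPM in 2 libraries), fits of the 4 libraries compared, an FDR limit of 0.05, a replicate block, GC correction by loess (span 0.3) and omission of single libraries. Shares of all genes called by DESeq2 are of those with an adjusted p. These numbered 16647 for the knockdown, 16192 for knockdown against deletion and 20288 for the CHD7 knockout.

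GRCh37 with lifted GENCODE models placed 55538 genes (96.1%), on which GapmeR targets with up to 1 mismatch, guides and overlaps with the study's listed HERVH copies were found with Python 3.11.15, pandas 2.3.3 and numpy 2.4.6. Reads on genes ranged from 14802049 to 23156445 per library. Named were the 10 genes, and of the genes with an exon in a copy or a GapmeR target in an exon, each DEG of knockdown or deletion and the 5 highest in WT. Genes annotated over one of the 10, the regulators and the 5 genes most like the 10 were named as well. Of the genes annotated over one of the 10, AC067718.1 (over P3H2-AS1), RPL5P31 and PRELID3BP2 (over C13orf42) are named only here. Values of HERVH copies themselves were not analysed here.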

Additional observations from a re-analysis of the deposited data

How the results depend on the processing

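HERVH knockdown against WT gave 2 down-regulated DEGs among the 10 transcripts. It gave 5 without a filter, with GC correction with or without the block, at an FDR below 0.05 and by DESeq2, 0 in the fit of the 4 libraries and 0 to 5 with a library left out. The median of the 10 ran from -1.2 to -0.888 with a library left out. For the deletion it ran from -0.842 to 0.0794, turning without WT replicate 1, and for the CHD7 knockout from -0.205 to 0.233, with 0 to 1 DEGs. Knockdown against deletion gave 0 down-regulated DEGs among the 10, and 1 under RLE scaling, the replicate block, GC correction and both together, 2 at an FDR below 0.05 and by DESeq2, 3 without a filter and 0 to 2 with a library left out. Its 1 up-regulated DEG gave 0 in the fit of the 4 libraries and 0 to 1 with a library left out, and its median was -0.0658 with GC correction, -0.0636 with the block in addition and -0.422 to -0.149 with a library left out. Over all genes the 19 lower DEGs of knockdown against deletion numbered 30 under RLE scaling, 25 with the block and 119 with GC correction. They numbered 115 with both together, 154 of 16192 genes by DESeq2 and 201 of 42395 genes without a filter. The causes were not tested. Over all genes the knockdown DEGs (32 lower, 19 higher) numbered 340 and 166 without a filter, 249 and 98 with GC correction, 225 and 96 with the block in addition, 260 and 113 by DESeq2, 55 and 26 under RLE scaling and 1 and 5 in the fit of the 4 libraries. They numbered 370 and 455 without knockdown replicate 1, 451 and 82 without knockdown replicate 2, 0 and 2 without WT replicate 1 and 11 and 5 without WT replicate 2. The deletion's 7 lower ran from 6 to 29 over these settings, the 19 lower and 29 higher of knockdown against deletion from 0 to 201 and 2 to 226, and the 55 lower and 79 higher of the CHD7 knockout from 55 to 149 and 79 to 222. With a library left out these became 5 to 6, 2 to 355 and 7 to 670, and 8 to 24 and 17 to 27.

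The median of the genes with an exon in a copy ran with a library left out from -0.425 to -0.148 for the knockdown, -0.196 to 0.0451 for the deletion, -0.344 to -0.22 for knockdown against deletion (-0.331 under RLE scaling) and 0.0353 to 0.325 for the CHD7 knockout. With a transcript start in a copy instead, it was -0.503, -0.0701 and -0.442 in the first 3, and with at least 50% of exonic bases in copies, which left 6 genes, -0.183 for the knockdown, 0.153 against the deletion and 0.672 for the CHD7 knockout. Exonic GapmeR targets left 2 tested genes, whose median for the deletion (-0.199) was -0.185 under RLE scaling, -0.181 with the stricter filter, -0.0701 with targets anywhere in the gene, 0.103 with up to 1 mismatch and -0.234 to -0.123 with a library left out. With up to 1 mismatch it was 0.289 for the knockdown, 0.186 for knockdown against deletion and 0.0158 for the CHD7 knockout. With full exonic targets and a library left out, knockdown against deletion ran from -0.442 to 0.0453. For the CHD7 knockout the median was 0.00805 with the stricter filter, 0.434 with targets anywhere in the gene and -0.0651 to 0.0673 with a library left out.

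The replicate numbers marked no stated batch. The deviations of same-numbered libraries correlated at 0.286, 0.427 and 0.295 among WT, knockdown and deleted cells and between -0.233 and -0.116 for the 3 pairs with CHD7 knockout cells, and the replicate block changed no other call among the 10. With 2 libraries a group and 3 to 22 reads in a library, LINC-ROR changes were not detectable at this depth.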

Other observations

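Genes other than the 10 with a full GapmeR target anywhere in the gene body numbered 80, of which 55 were tested. Of these 55, 31 were also among the 75 genes with an exon in a HERVH copy. In CHD7 knockout cells 14 of the 55 (25.5%) had a log2 fold change below 0, against 51.5% of all genes, and 41 above. The median was 0.43, against -0.01 over all genes tested, and no WT range is given for this list. By edgeR none passed the DEG threshold, 13 higher and 3 lower had an unadjusted p below 0.05 (6.25% and 4.61% of all genes), and DESeq2 called 2 up-regulated DEGs of 49 with an adjusted p (0.863% of all genes). In HERVH knockdown cells 36 of the same 55 were below 0 (47.1% of all genes) with a median of -0.47. By edgeR none was a DEG there, 20 lower and 2 higher had an unadjusted p below 0.05 (9.82% and 9.19% of all genes), and DESeq2 called 4 down-regulated DEGs of 36 with an adjusted p (1.56% of all genes).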
